A study of Mus musculus with 18 samples.

Results

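The genes described here are the replication-dependent histone genes of the mouse, taken as every gene of the count table whose symbol begins with Hist1h, Hist2h, Hist3h or Hist4h. There were 64 such genes among 24116, made up of 6 for the linker histone H1, 17 for H2A, 18 for H2B, 10 for H3 and 13 for H4. RNA had been sequenced from 18 libraries of 129S6/SvEvTac mouse embryonic stem (ES) cells grown in serum with LIF. The groups were Snf2h ko cells with an ATPase-mutant Snf2h returned (mutant add-back, n = 2, replicates 1 and 3), Snf2h ko cells with wild-type Snf2h returned (wild-type add-back, n = 3), Snf2h ko cells (ko, n = 5) and wild-type cells (n = 8), so that both add-back groups also carry the ko. Snf2h, encoded by Smarca5, is the ATPase that drives ISWI chromatin remodelling complexes. Per the labels, ko and mutant add-back lines spent at least their early passages after thawing on mouse embryonic fibroblast feeders, whereas the other lines were kept on gelatin. Replicates are called biological, but separate cultures are not stated, so the p-values measure the spread between these libraries, part of which may be technical.

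Replication-dependent histone genes supply the core histones H2A, H2B, H3 and H4 and the linker histone H1 while DNA is being copied. Their messenger RNAs are unusual in ending, as a rule, not in a poly(A) tail but in a short stem-loop, which the protein SLBP binds and which U7 small nuclear RNA and its partners help to cut. Some of these genes also make messages that run past the stem-loop to a downstream poly(A) signal. The libraries were prepared from polyadenylated RNA, so the values below describe the small tailed fraction of histone message and whatever untailed message came through the selection, and not total histone message.

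The stem-loop was looked for as GG, 3 pyrimidines, TT, a pyrimidine, T, any base, A, 3 purines, CC, on the transcript strand after the stop codon of GENCODE M21 transcripts (GRCm38). It was present for 42 of the 64 genes, in 8 different sequences, between 21 and 58 bases past the stop codon. The same pattern occurs somewhere in a transcript of 0.311% of 21877 protein-coding genes. Of the other 22 histone genes, 17 have annotated transcripts that end within 16 bases of the coding end or hold no coding sequence. The following 30-base windows are shown because these genes are described below, with the 16 bases of the stem-loop in capitals and the strand read 5′ to 3′. The first 5 genes share the most frequent sequence, found in 22 genes, and the H4 gene Hist1h4d has the form found in 7 genes, all of class H4.
Hist3h2a, chr11:58955172-58955187, plus strand: accaaaGGCTCTTTTCAGAGCCacccacaa
Hist3h2ba, chr11:58949349-58949364, plus strand: cccaaaGGCTCTTTTCAGAGCCaccttcca
Hist1h2ao, chr13:21810898-21810913, plus strand: aaaaaaGGCTCTTTTCAGAGCCatccacag
Hist2h3c1, chr3:96247327-96247342, plus strand: cacaaaGGCTCTTTTCAGAGCCaccacagc
Hist1h1c, chr13:23739512-23739527, plus strand: ccaaaaGGCTCTTTTCAGAGCCaccactcc
Hist1h4d, chr13:23581950-23581965, plus strand: accaaaGGCCCTTTTCAGGGCCactacctt

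Annotated transcripts ran more than 200 bases past the stem-loop for 16 genes, and 12 of these transcripts held AATAAA or ATTAAA after it. Among the 6 genes shown, Hist3h2a (1643 bases past the stem-loop), Hist2h3c1 (1167 bases), Hist1h1c (840 bases) and Hist1h4d (770 bases) have such a long form with these letters. Hist3h2ba ends 169 bases past the stem-loop, also with these letters, and Hist1h2ao ends 31 bases past it without them. The letters were looked for anywhere after the stem-loop, and no share over other genes was taken. A match therefore does not show a poly(A) site in use. No match was found for Hist1h2bc, Hist1h2br and Hist2h2be, whose annotated transcripts run 745, 1806 and 2195 bases past the coding sequence. That says only that these letters are not in the annotated transcripts.

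Promoters from RefSeq (GRCm38.p6), covering 250 bases before and 50 bases after the start, were matched by Entrez identifier for 57 of the 64 genes. CCAAT (or ATTGG on the other strand) was present in 48 of them (84.2%), against 41.1% of 27025 genes. It was in every promoter of classes H1, H2A, H2B and H3, and in 3 of 12 of class H4. TATAAA on either strand was in 33 of them (57.9%), against 15.7% of all genes. The octamer ATTTGCAT on either strand was in 7 of 16 promoters of H2A and 7 of 15 of H2B, in 0 of 26 of the other classes, and in 1.97% of all genes. Promoters are printed for Hist3h2a and Hist3h2ba, the pair of neighbouring genes with the largest differences below, and for Hist1h2ac, whose start lies beside that of Hist1h2bc. Motif letters are in capitals. The Hist3h2a window overlaps the start of the pseudogene Hist3h2bb-ps, annotated on the other strand at chr11:58954048-58954512. A match is a description of the letters and not of a bound site.
Hist3h2a, chr11:58954435-58954734, plus strand: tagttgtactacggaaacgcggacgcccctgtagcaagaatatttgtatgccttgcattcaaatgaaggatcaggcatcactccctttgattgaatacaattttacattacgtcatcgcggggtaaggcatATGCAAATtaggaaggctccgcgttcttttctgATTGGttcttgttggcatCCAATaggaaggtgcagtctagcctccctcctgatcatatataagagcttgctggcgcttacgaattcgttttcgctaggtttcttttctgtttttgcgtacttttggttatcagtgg
Hist3h2ba, chr11:58948661-58948960, plus strand: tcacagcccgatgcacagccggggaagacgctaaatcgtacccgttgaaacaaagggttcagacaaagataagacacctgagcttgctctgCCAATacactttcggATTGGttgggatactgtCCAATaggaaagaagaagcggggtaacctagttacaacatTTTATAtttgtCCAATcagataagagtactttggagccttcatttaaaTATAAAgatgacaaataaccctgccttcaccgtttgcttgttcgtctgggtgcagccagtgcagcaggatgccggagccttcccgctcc
Hist1h2ac, chr13:23683910-23684209, minus strand: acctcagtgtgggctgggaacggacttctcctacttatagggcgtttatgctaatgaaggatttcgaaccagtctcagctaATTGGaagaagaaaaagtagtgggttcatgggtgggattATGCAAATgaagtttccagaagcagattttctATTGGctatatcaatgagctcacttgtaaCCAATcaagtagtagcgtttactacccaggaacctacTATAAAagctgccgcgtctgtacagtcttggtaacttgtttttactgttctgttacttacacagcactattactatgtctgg

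By RefSeq coordinates (GRCm38.p6), 52 of the genes lie on chromosome 13, 8 on chromosome 3, 3 on chromosome 11 and 1 on chromosome 6, and 2 of the 64 are pseudogenes. Most copies within a core histone class are close to identical: over the coding sequence, with copies of equal length compared base by base, the nearest other copy matched at a median of 98.7% of bases for H2A, 98.4% for H2B, 98.8% for H3 and 96.8% for H4. Some matched less, down to 82.8% in H2A and 87.2% in H4. Hist3h2a matched at 89.8% and Hist3h2ba at 90.8%. No H1 gene had another copy of equal length, so H1 was not compared. How reads that fit several copies were counted is not given in the sources used here. Values of single genes may therefore be split between copies, and sums over a class are given beside them.

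Library totals ranged from 15.3 to 37.0 M counts. The totals fall into a low set under 20 M counts (wild-type replicates 6 to 8, ko replicates 3 to 5 and every add-back library), a middle set of 20 to 30 M (wild-type replicates 1 and 2, ko replicates 1 and 2) and a high set over 30 M (wild-type replicates 3 to 5). Sets differed widely with no difference in genotype: low-set against middle-set wild-type libraries differed by edgeR at an adjusted p under 0.05 for 21.9% of the 14901 tested genes upwards and 21.6% downwards. Comparisons were therefore made within a set. Smarca5 averaged 58.5 ± 14.3 CPM (counts per 1e6 counts of the TMM-scaled library size; SD) in mutant add-back, 86.0 ± 3.63 CPM in wild-type add-back, 9.50 ± 0.714 CPM in low-set ko and 204 ± 10.4 CPM in low-set wild-type libraries. In the middle set it averaged 9.15 CPM in ko and 207 CPM in wild-type libraries.

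The 64 genes together took between 0.00327% and 0.0109% of a library's counts, from 549 to 1865 counts. Their mean levels over the 18 libraries had a median of 0.686 CPM, and 46 of the 64 were under 1 CPM. Per kb of exon the histone genes had a median of 1.16 CPM per kb, against 6.81 CPM per kb over all tested genes. Counts were enough for 56 of the 64 to pass the filter on low counts (H1 5, H2A 15, H2B 18, H3 9 and H4 9), and fold changes exist only for those.

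The level per length was highest for the H2B gene Hist1h2bc, at 7.10 CPM per kb and 9.27% of the CPM of the 64 genes. Hist3h2a, an H2A gene, followed at 5.66 CPM per kb and Hist1h1c, an H1 gene, at 3.32 CPM per kb. The H3 gene with the most counts, Hist2h3c1, had 0.725 CPM per kb over a counted length of 2556 bases. Hist1h3c was at 1.61 CPM per kb and Hist1h4d, the H4 gene with the most counts, at 2.34 CPM per kb. At the low end, the testis-type H1 gene Hist1h1t had 0.0915 CPM per kb. Genes with an annotated form longer than 200 bases past the stem-loop had a median of 1.14 CPM per kb, and those with a shorter form 1.30 CPM per kb. For 4 genes (Hist1h2ad, Hist1h2ao, Hist1h2br and Hist2h3c1) the counted exonic length exceeds the RefSeq span of the gene, so levels per kb of those genes rest on an annotation not used here. Their counts and fold changes may also include reads from outside the RefSeq span, which was not tested.

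**Figure D1:**
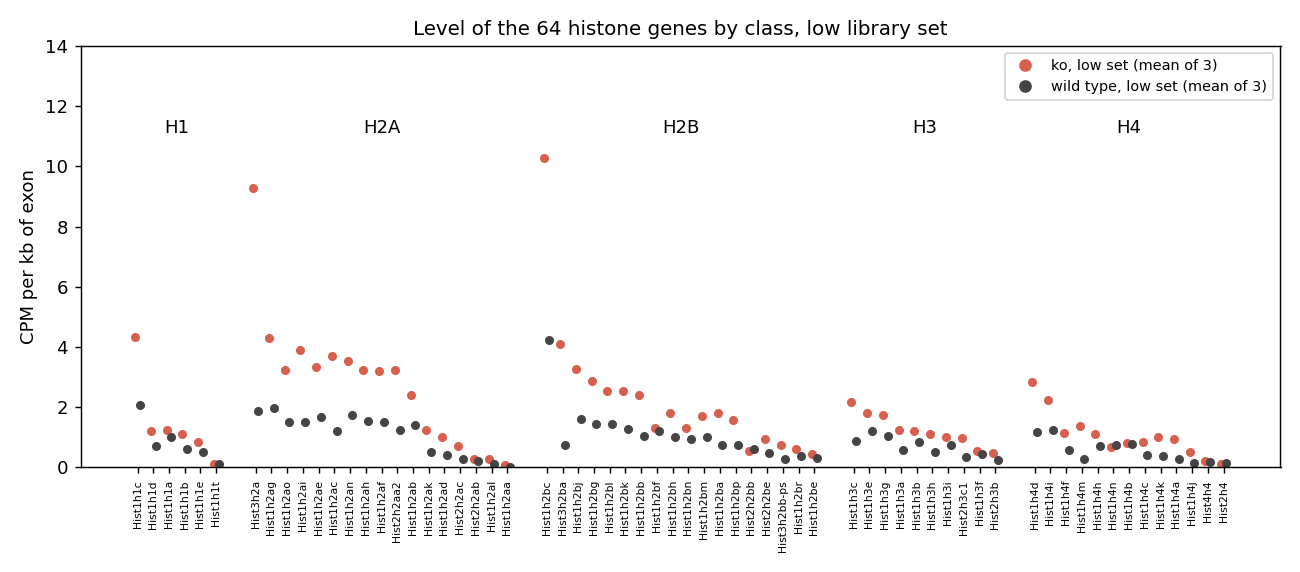
Mean level in CPM per kb of exon of each of the 64 histone genes, ordered within each class by the mean level per kb over all libraries, in ko (left point of each pair) and wild-type (right point) libraries of the low set, n = 3 each. Hist1h2bc and Hist3h2a in ko stand well above all other points.

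The summed level of the 64 genes was higher in low-set ko than in low-set wild-type libraries. Sums were 72.6, 77.8 and 77.1 CPM in ko replicates 3 to 5, against 34.3, 33.5 and 39.3 CPM in wild-type replicates 6 to 8. The groups did not overlap, with means of 75.8 ± 2.83 CPM in ko and 35.7 ± 3.16 CPM in wild type (SD, n = 3 each), a ratio of 2.12. Every class contributed, with ratios of 1.77 for H1, 2.47 for H2A, 2.02 for H2B, 1.94 for H3 and 1.95 for H4, and ko and wild-type libraries did not overlap for any of them. In a bulk sample, more cells making a message and more of it per cell cannot be told apart.

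By edgeR's quasi-likelihood test with Benjamini-Hochberg adjustment over all tested genes, 31 of 56 tested histone genes were higher in low-set ko and 0 were lower, against 29.3% of all tested genes higher and 30.8% lower. DESeq2 called 27 higher and 0 lower, and 0 members had an unadjusted p under 0.05 in the lower direction. The median log2 fold change over the tested histone genes was 1.02, against -0.01 over all tested genes. By class, 1 of 5 H1 genes, 13 of 15 H2A genes, 11 of 18 H2B genes, 3 of 9 H3 genes and 3 of 9 H4 genes were higher.

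H1 binds the linker DNA between nucleosomes. Hist1h1c had 2.65, 3.44 and 3.31 CPM in low-set ko libraries, against 1.53, 1.28 and 1.68 CPM in low-set wild-type libraries. All ko values exceeded all wild-type values, and the log2 fold change was 1.06 ± 0.23 (SE; edgeR, adjusted p = 0.000401). It was the H1 gene called.

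H2A and H2B pair as dimers at the faces of the nucleosome. Hist3h2a had 4.01, 5.08 and 5.06 CPM in ko and 1.09, 0.976 and 0.810 CPM in wild type, a log2 fold change of 2.29 ± 0.25 (SE; edgeR, adjusted p = 1.1e-07). Its neighbour Hist3h2ba, an H2B gene, had 1.75, 1.80 and 2.15 CPM in ko and 0.328, 0.366 and 0.347 CPM in wild type, a log2 fold change of 2.43 ± 0.35 (SE; edgeR, adjusted p = 4.5e-06). These were the largest differences among tested H2A and H2B genes, and the groups of neither overlapped. The pseudogene between them, Hist3h2bb-ps, was at most 0.423 CPM in those libraries and was not called.

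Hist1h2bc, the most abundant gene, had 6.61, 9.53 and 7.73 CPM in ko against 3.61, 3.11 and 3.12 CPM in wild type, a log2 fold change of 1.28 ± 0.17 (SE; edgeR, adjusted p = 2.49e-06). Hist1h2ac, which starts beside it on the other strand, had 2.48, 1.59 and 1.34 CPM in ko and 0.547, 0.427 and 0.810 CPM in wild type (1.59 ± 0.35, adjusted p = 0.000556). Hist1h2ao had 3.56, 3.33 and 3.84 CPM in ko and 1.59, 1.65 and 1.74 CPM in wild type (1.11 ± 0.30, adjusted p = 0.00363). Ko libraries lay above wild-type libraries for each of these 3 genes. The log2 fold changes of the called H2A genes ran up to that of Hist3h2a, and the 2 uncalled H2A genes, Hist1h2ab and Hist2h2ac, were also above 0 at 0.76 and 1.27.

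H3 and H4 form the tetramer at the centre of the nucleosome. Hist2h3c1 had 2.37, 3.02 and 2.15 CPM in ko and 0.984, 0.671 and 1.10 CPM in wild type, with no overlap and a log2 fold change of 1.44 ± 0.27 (SE; edgeR, adjusted p = 0.000126). Hist1h3c and Hist1h3a were the other H3 genes called, at 1.28 and 1.11. Of H4, Hist1h4d (1.23, adjusted p = 0.00834), Hist1h4m (2.22, adjusted p = 0.0104) and Hist1h4a (1.63, adjusted p = 0.0175) were called. Hist1h4a had 10, 7 and 6 counts in low-set ko and 2, 1 and 4 in low-set wild type. It passed the filter on low counts only through ko replicate 3 and wild-type add-back replicate 3. Its call, 1 of the 31, is therefore not independent of the filter. Hist1h4m rested on 0.0547, 0.122 and 0.174 CPM in wild type, only a few counts per library, so the size of its fold change is imprecise. The call of Hist1h4m was lost without wild-type replicate 6, and that of Hist1h4d without wild-type replicate 7 or ko replicate 5.

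**Figure D2:**
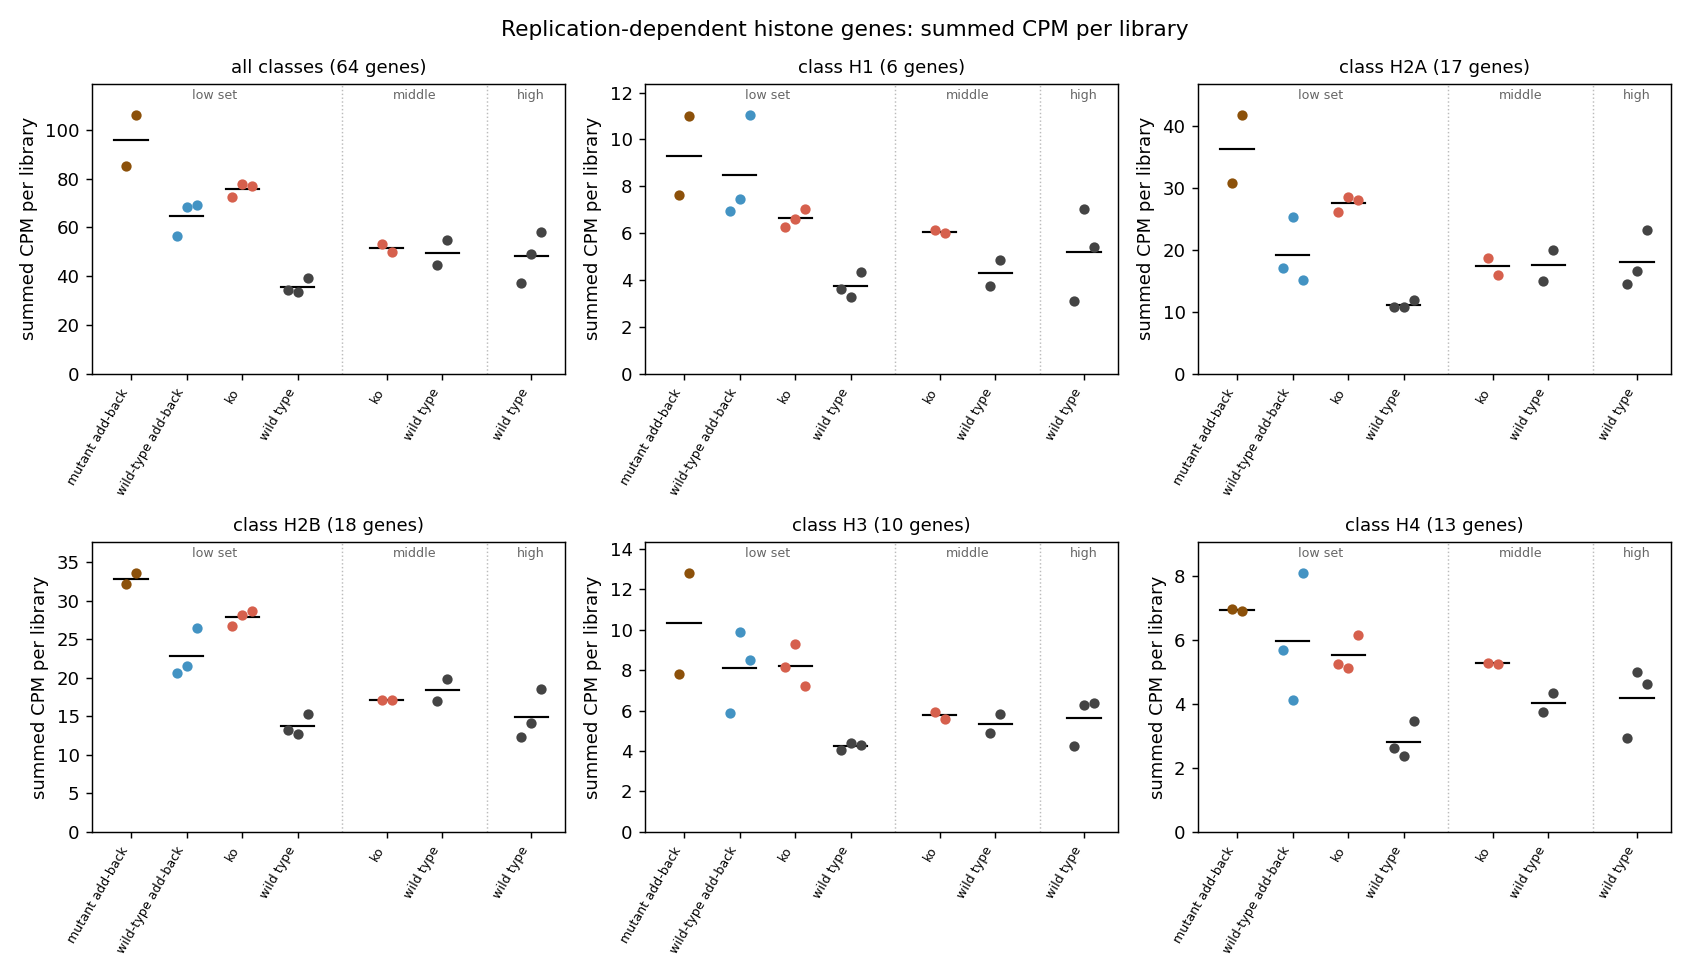
Summed CPM per library (points) of all 64 histone genes and of each class, with group means as bars, by library set. In the low set every ko library lies above every wild-type library in each panel, and in the middle set the sums over all classes overlap.

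The same comparison in the middle set gave another result. Sums over all classes were 53.2 and 49.9 CPM in ko replicates 1 and 2, against 44.4 and 54.8 CPM in wild-type replicates 1 and 2, a ratio of 1.04, and the groups overlapped. By edgeR, 2 of 56 tested genes were higher in ko and 0 lower (DESeq2: 1 and 0, and 0 lower at an unadjusted p under 0.05), against 29.9% of all tested genes higher and 31.9% lower. The median log2 fold change over the tested histone genes was 0.01, against -0.03 over all tested genes. Both called genes came from classes that did not overlap between the groups as sums, H1 (ratio 1.41) and H4 (ratio 1.31). Hist1h1c had 2.52 and 2.28 CPM in ko and 1.01 and 1.55 CPM in wild type (0.89 ± 0.27, edgeR adjusted p = 0.00616). Hist1h4f had 0.709 and 0.619 CPM in ko and 0.351 and 0.278 CPM in wild type (1.07 ± 0.44, edgeR adjusted p = 0.0385), and is named although it lies outside the rule for naming genes, having been chosen after its values were seen. Hist1h4f passed the filter on low counts only through ko and wild-type add-back libraries, so its call is not independent of the filter. Without wild-type replicate 1, 0 genes were called in the middle set, and without ko replicate 1, 1 was.

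**Figure D3:**
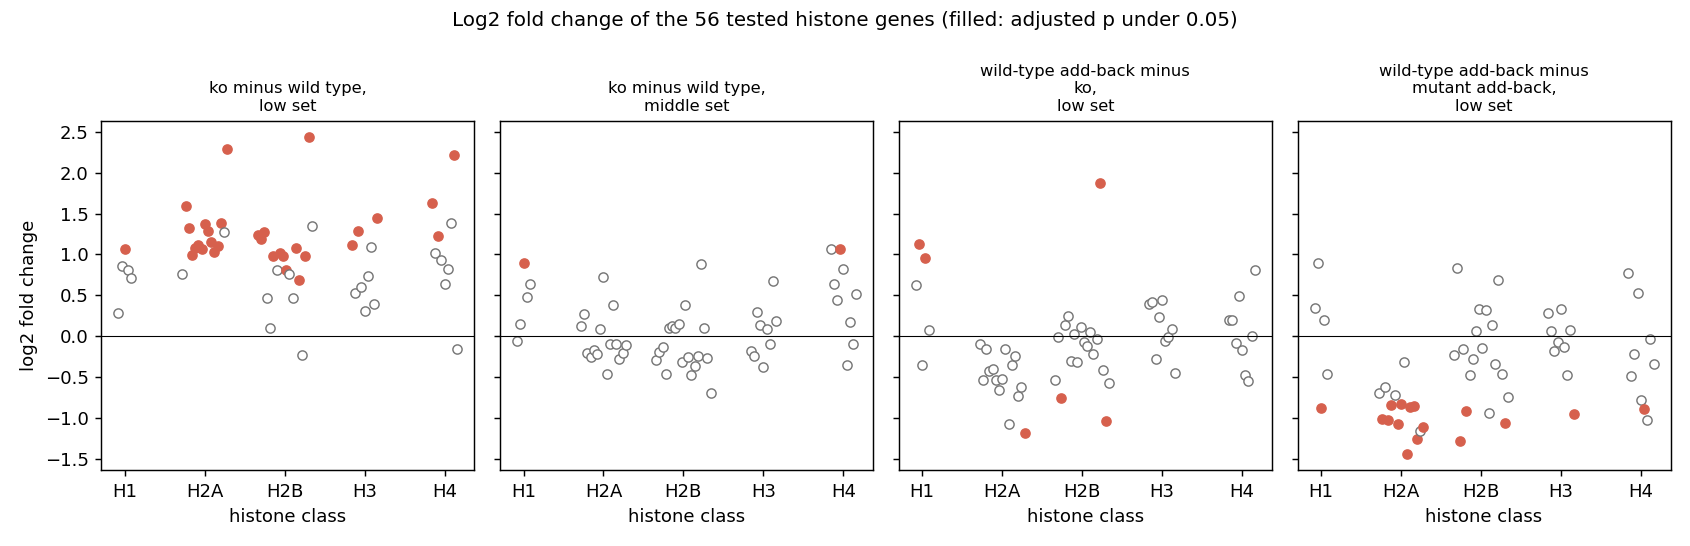
Log2 fold change of each of the 56 tested histone genes by class in 4 comparisons, with filled points at an adjusted p under 0.05 (edgeR's quasi-likelihood test). In ko minus wild type, most points are above 0 in the low set and scatter around 0 in the middle set, and the H2A genes are below 0 in both comparisons of the wild-type add-back.

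The difference between the sets was itself tested as an interaction in the same fit. The ko difference was larger in the low set for 10 of 56 tested histone genes and smaller for 0 by edgeR (DESeq2: 8 and 0, with 11 of the 56 given no adjusted p, and 0 smaller at an unadjusted p under 0.05), against 13.6% of all tested genes larger and 13.2% smaller. The share larger among the histone genes was only a little above that over all tested genes. The 10 were 5 H2A genes, 4 H2B genes and 1 H3 gene, and the median over the tested histone genes was 0.94, against 0.04 over all tested genes. The interaction was 2.70 ± 0.49 for Hist3h2ba (edgeR adjusted p = 0.000272), 2.39 ± 0.36 for Hist3h2a (adjusted p = 3.26e-05), 1.41 ± 0.27 for Hist1h2bc (adjusted p = 0.000535) and 1.27 ± 0.42 for Hist2h3c1 (adjusted p = 0.0284). The others were Hist1h2ad, Hist1h2ae, Hist1h2ak, Hist2h2aa2, Hist1h2ba and Hist1h2bk, at 1.24 to 1.76. The count of 10 fell to 3 without ko replicate 2, 4 without wild-type replicate 2 and 6 without wild-type replicate 6, wild-type replicate 7 or ko replicate 1. The interaction of Hist3h2a, Hist3h2ba and Hist1h2bc was called without any 1 of these libraries, whereas that of Hist2h3c1 was lost in 6 of 10 such fits (without wild-type replicate 1, 2 or 7 or ko replicate 1, 2 or 4).

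**Figure D4:**
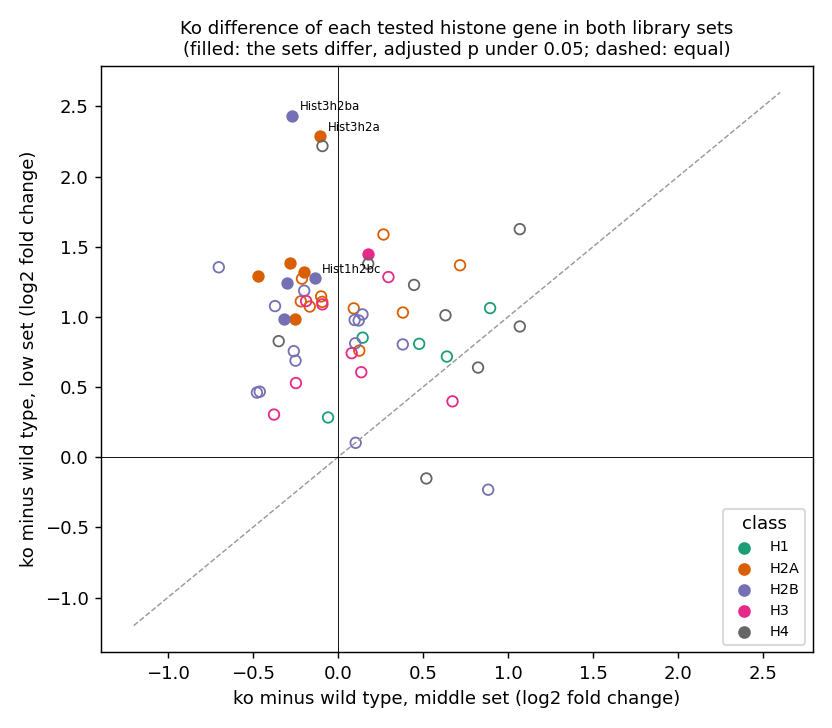
Log2 fold change of ko minus wild type in the low set (vertical) against the middle set (horizontal) for each of the 56 tested histone genes, coloured by class, with filled points where the sets differ at an adjusted p under 0.05. Points lie mostly above the dashed line of equality, with Hist3h2a and Hist3h2ba farthest from it.

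The sets were also compared within each genotype, where the shares of histone genes called were at or below those over all tested genes. Low-set wild-type libraries had 0 histone genes higher and 5 lower than middle-set wild-type libraries (edgeR; DESeq2: 0 and 2, and 0 higher at an unadjusted p under 0.05), against the 21.9% and 21.6% of all tested genes given above. The sums over all classes were 35.7 ± 3.16 CPM in the low set (n = 3) and 49.6 ± 7.38 CPM in the middle set (n = 2). Hist3h2a (-1.52), Hist3h2ba (-1.83), Hist1h2ak, Hist1h3a and Hist1h4m were the 5. Low-set ko libraries had 12 histone genes higher and 0 lower than middle-set ko libraries (edgeR; DESeq2: 7 and 0, and 0 lower at an unadjusted p under 0.05), against 23.5% of all tested genes higher and 20.3% lower. Their sums were 75.8 ± 2.83 CPM (n = 3) and 51.6 ± 2.38 CPM (n = 2), and Hist1h2bc averaged 7.95 CPM in low-set and 3.59 CPM in middle-set ko libraries. The count of 12 fell to 2 without ko replicate 2, 4 without ko replicate 1, 6 without ko replicate 4 and 7 without ko replicate 5, and the count of 5 to 2 or 3 without wild-type replicate 2, 6 or 7. What separates the sets beyond the total count is not given in the sources used here. High-set wild-type libraries, which have no partner in another group, had sums of 37.0, 48.9 and 58.1 CPM.

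**Figure D5:**
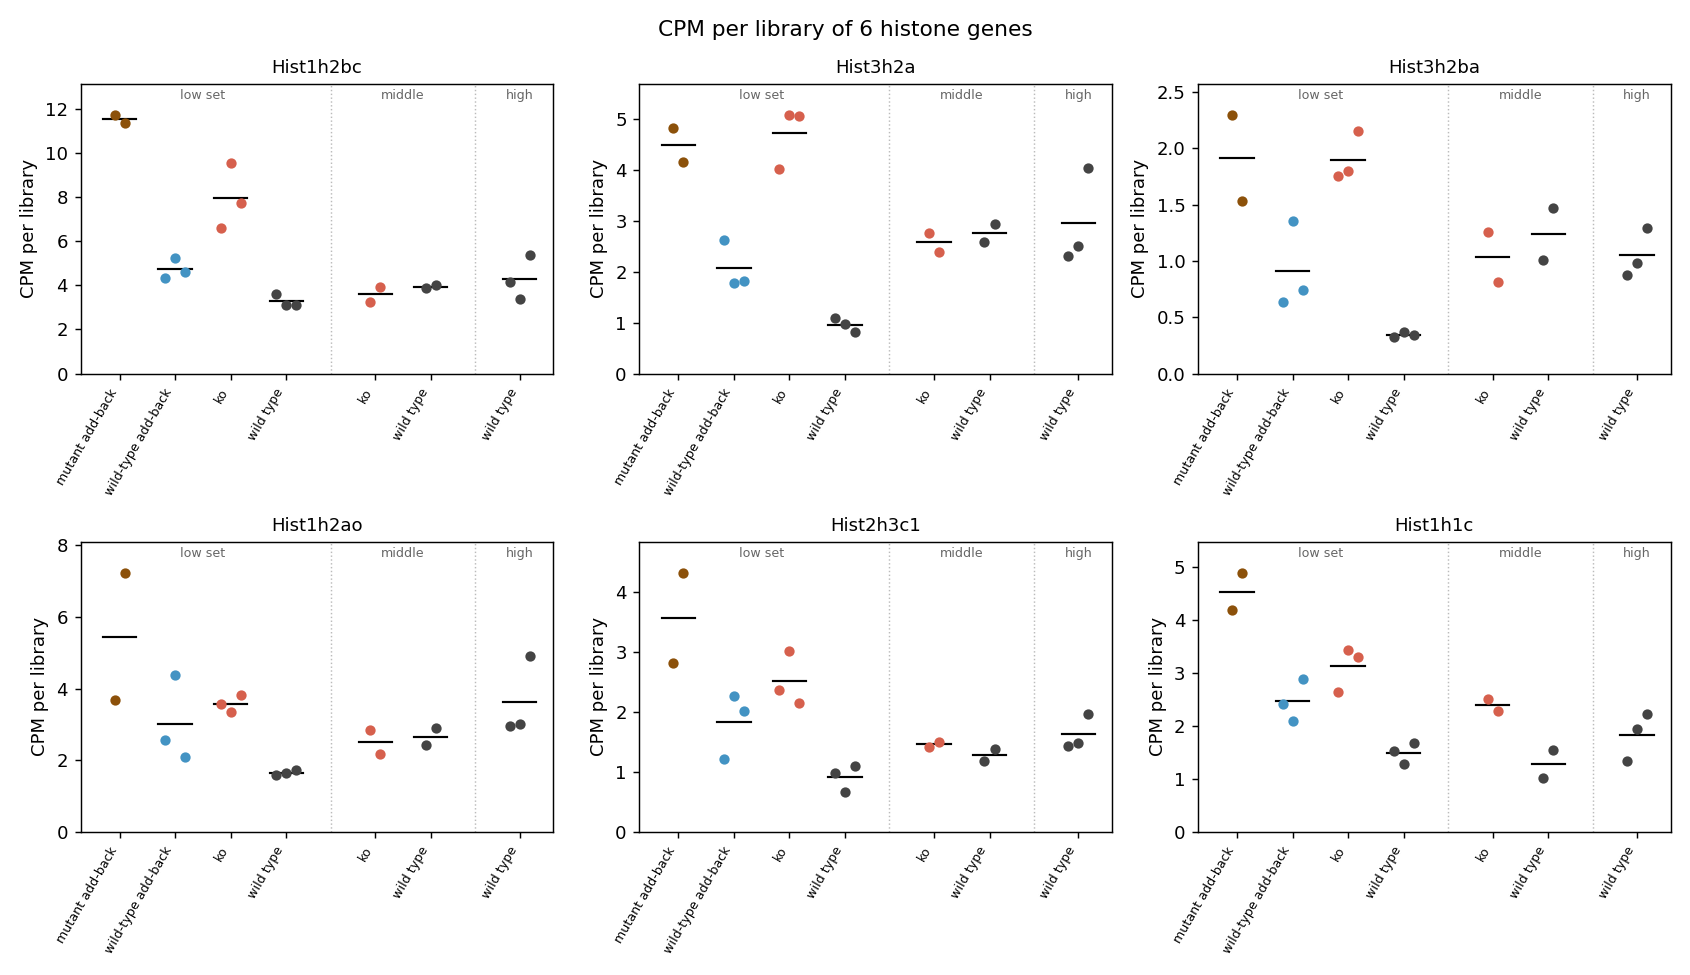
CPM per library of 6 histone genes by group and library set, with group means as bars. Hist1h2bc is highest in mutant add-back libraries, and Hist3h2a and Hist3h2ba are lowest in low-set wild-type libraries.

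With wild-type Snf2h returned to ko cells, the sum over all classes was somewhat lower than in ko. Sums were 56.3, 68.3 and 69.2 CPM in wild-type add-back libraries, against 72.6, 77.8 and 77.1 CPM in low-set ko libraries, a ratio of 0.852 with no overlap. The ratio was 0.695 for H2A and 0.821 for H2B, without overlap, and 1.28 for H1, 0.985 for H3 and 1.08 for H4, with overlap. By edgeR, 3 of 56 tested genes were higher and 3 lower in wild-type add-back, against 29.7% of all tested genes higher and 28.8% lower, and the median was -0.14. The split moved with the scaling, to 1 higher and 5 lower with library size alone and to 2 and 3 with DESeq2 size factors.

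The 3 genes that fell were the ones with the largest levels or ko differences among H2A and H2B. Hist3h2a had 2.62, 1.78 and 1.82 CPM in wild-type add-back, against the 4.01, 5.08 and 5.06 CPM in ko given above (-1.18 ± 0.22, edgeR adjusted p = 0.00011). Hist1h2bc had 4.34, 5.23 and 4.58 CPM in wild-type add-back (-0.75 ± 0.17, adjusted p = 0.000641) and Hist3h2ba 0.639, 1.35 and 0.742 CPM (-1.04 ± 0.29, adjusted p = 0.00447). None of the 3 overlapped with ko. The 15 tested H2A genes all had a log2 fold change below 0, of which 1 was called.

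The 3 genes that rose were Hist1h1b (1.34, 1.54 and 2.90 CPM in wild-type add-back, against 1.07, 0.741 and 0.814 CPM in ko), Hist1h1d (1.60, 1.66 and 2.29 CPM against 0.791, 1.01 and 1.05 CPM) and the H2B gene Hist2h2bb. Hist2h2bb, chosen for mention after its values were seen, had 0.575, 0.554 and 1.82 CPM in wild-type add-back and 0.339, 0.106 and 0.349 CPM in ko. The highest value of each came from wild-type add-back replicate 3. Without that library 0 genes were called higher and 3 lower, and without ko replicate 3, 4 or 5 only 1 was called higher. The call of Hist1h1d was lost whichever of the 6 libraries was left out, with a log2 fold change of 0.78 to 1.05. With no filter on low counts the split was 1 higher and 5 lower. That library stood apart in a list of 9 noncoding RNAs that lack a poly(A) tail, such as Rmrp and Rpph1, the RNA parts of RNase MRP and RNase P. The list summed to 23.4 CPM there, against 5.37 and 6.03 CPM in the other wild-type add-back libraries. The part of untailed RNA in the histone values was not tested.

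Mutant add-back libraries had the highest sums, 85.3 and 106 CPM, against 72.6 to 77.8 CPM in low-set ko libraries, a ratio of 1.26 with no overlap. By edgeR, 2 of 56 tested genes were higher and 0 lower (DESeq2: 1 and 0, with 47 of the 56 given no adjusted p, and 0 lower at an unadjusted p under 0.05), against 6.83% of all tested genes higher and 7.8% lower. Hist1h2bc had 11.7 and 11.3 CPM in mutant add-back and 6.61, 9.53 and 7.73 CPM in ko, a log2 fold change of 0.53 ± 0.17 (edgeR, adjusted p = 0.037). Hist1h2bf, another H2B gene, had 1.09 and 1.42 CPM in mutant add-back and 0.621, 0.476 and 0.581 CPM in ko (1.16 ± 0.34, adjusted p = 0.0242). Leaving out mutant add-back replicate 1, mutant add-back replicate 3, ko replicate 3 or ko replicate 5 left 0 calls, and leaving out ko replicate 4 left 1.

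The wild-type and mutant forms of Snf2h were then compared with each other. Sums were 56.3, 68.3 and 69.2 CPM in wild-type add-back and 85.3 and 106 CPM in mutant add-back, a ratio of 0.675 with no overlap. By edgeR, 0 of 56 tested genes were higher and 16 lower in wild-type add-back (DESeq2: 0 and 12, and 1 higher at an unadjusted p under 0.05), against 30% of all tested genes higher and 30.6% lower. The share lower among the histone genes was near that over all tested genes, so the count of 16 does not by itself set them apart. Of the 16, 10 were among the 15 tested H2A genes, 3 among 18 H2B, and 1 each among H1, H3 and H4. The median was -0.86 for H2A, -0.26 for H2B, 0.20 for H1, -0.07 for H3 and -0.34 for H4, and -0.01 over all tested genes.

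Hist1h2bc averaged 4.72 CPM in wild-type add-back and 11.5 CPM in mutant add-back (-1.29 ± 0.18, edgeR adjusted p = 3.17e-06). Hist3h2a averaged 2.07 CPM in wild-type add-back and 4.49 CPM in mutant add-back (-1.11 ± 0.24, adjusted p = 0.000546). Hist2h2aa2, an H2A gene, had 0.958, 1.78 and 0.674 CPM in wild-type add-back and 2.36 and 3.19 CPM in mutant add-back (-1.26 ± 0.33, adjusted p = 0.00251). The groups of none of these 3 genes overlapped. Hist1h2ao did overlap, at 2.55, 4.37 and 2.09 CPM in wild-type add-back and 3.68 and 7.23 CPM in mutant add-back (-0.85 ± 0.29, adjusted p = 0.0165). Its value of 7.23 CPM came from mutant add-back replicate 3, in which the list of untailed noncoding RNAs summed to 16.8 CPM, against 6.26 CPM in mutant add-back replicate 1. The call of Hist1h2ao was lost without mutant add-back replicate 3, wild-type add-back replicate 1 or wild-type add-back replicate 3, and its log2 fold change ranged from -1.24 to -0.27 over the 5 libraries left out in turn, nearest to 0 without mutant add-back replicate 3.

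Against low-set wild type, both add-back groups were higher. Wild-type add-back sums of 56.3 to 69.2 CPM did not overlap with wild-type sums of 33.5 to 39.3 CPM, a ratio of 1.81. By edgeR, 15 of 56 tested genes were higher and 0 lower (DESeq2: 11 and 0, and 0 lower at an unadjusted p under 0.05), against 10.7% of all tested genes higher and 11.8% lower, and the median was 0.79. The 15 were 3 H1, 2 H2A, 4 H2B, 2 H3 and 4 H4 genes, among them Hist1h1b (1.98 ± 0.41, adjusted p = 0.00158), Hist1h1d (1.76 ± 0.45, adjusted p = 0.008), Hist1h2bb (1.17 ± 0.39, adjusted p = 0.035) and Hist3h2a (1.10 ± 0.28, adjusted p = 0.00775). The count was 6 to 11 when any 1 library of either group was left out, and 9 without wild-type add-back replicate 3. The call of Hist1h2bb was lost in 5 of 6 such fits (all but the one without wild-type replicate 8), and that of Hist3h2a without wild-type add-back replicate 1. Some tested genes, such as Hist1h4a and Hist1h4f, passed the filter on low counts only through ko and wild-type add-back libraries. A call of such a gene in this comparison is not independent of the filter.

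In mutant add-back, 38 of 56 tested genes were higher than in low-set wild type and 0 lower by edgeR (DESeq2: 31 and 0, and 0 lower at an unadjusted p under 0.05), against 30.2% of all tested genes higher and 30.1% lower. The 38 included all 15 tested H2A genes, and the ratio of sums was 2.68 over all classes and 3.26 for H2A. Some of the 38, such as Hist1h4h and Hist2h2ac, passed the filter on low counts only through ko and add-back libraries. Their calls against wild type are not independent of the filter. Hist3h2ba (2.45 ± 0.38, adjusted p = 1.22e-05), Hist3h2a (2.22 ± 0.27, adjusted p = 6.36e-07), Hist1h2ac (2.07 ± 0.36, adjusted p = 5.38e-05) and Hist2h3c1 (1.95 ± 0.28, adjusted p = 6.73e-06) led by fold among genes of at least 1 CPM without overlap. Without mutant add-back replicate 3, 23 genes were called. The ko, wild-type add-back and mutant add-back comparisons with low-set wild type share the same 3 wild-type libraries, and those with ko share the same 3 ko libraries.

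By locus, counts of called genes are to be read against the 29.3% of all tested genes that were higher in this comparison. In ko minus wild type of the low set, the block of 21 genes at chr13:21715711-22043658 had 12 of 20 tested genes higher (median 1.02) and the block of 30 genes at chr13:23531044-23934913 had 13 of 27 higher (median 0.97). The 8 genes at chr3:96219885-96270192 had 3 of 5 tested genes higher (median 1.27), and at chr11:58948911-58955192 2 of 3 were higher (median 2.29). Genes with an annotated form over 200 bases past the stem-loop had 5 of 13 tested genes higher (median 0.83), and those with a shorter form 15 of 24 (median 1.05); the share of the longer forms is near that over all tested genes, and the difference between the forms was not tested.

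Genes that act on histone message or histone protein were also counted, to be read against the 29.3% higher and 30.8% lower over all tested genes in the low set and the 29.9% higher and 31.9% lower in the middle set. Of 22 genes for histone gene transcription and 3′ end formation, 1 was higher and 11 lower in low-set ko. Among them were Lsm11, part of the U7 particle (-0.80 ± 0.10, edgeR adjusted p = 8.59e-07), Srrt (-0.52 ± 0.08, adjusted p = 5.59e-06) and Cstf2 (-0.32 ± 0.06, adjusted p = 4.91e-05). Slbp, which binds the stem-loop, averaged 111 CPM in low-set ko and 120 CPM in low-set wild type and was not called, and 86.8 CPM in middle-set ko against 116 CPM in middle-set wild type. It is named here after its values were seen.

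Of 17 genes for cleavage and polyadenylation, 0 were higher and 10 lower in low-set ko, and 0 and 11 in the middle set (edgeR), against the 30.8% and 31.9% of all tested genes lower. Examples are Cpsf6 (-0.47 ± 0.06, adjusted p = 2.02e-06), Fip1l1 (-0.41 ± 0.05, adjusted p = 1.62e-06) and Cstf3 (-0.39 ± 0.06, adjusted p = 3.76e-06) in the low set. Of 20 histone chaperones, 3 were higher and 13 lower in low-set ko, with the chaperone of H3.3, Hira, at -0.80 and the CENP-A chaperone Hjurp at 0.54. Of 20 genes of DNA synthesis and S phase, 1 was higher and 13 lower in low-set ko (median -0.24) and 1 and 15 in the middle set (median -0.37), with Tyms, Ccne1 and Ccne2 each lower in both sets.

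Histone variants made outside S phase were far more abundant in these polyadenylated libraries. The 13 variant genes in the table summed to 2002.7 ± 31.7 CPM in low-set ko and 1582 ± 37.3 CPM in low-set wild type (SD, n = 3 each). By edgeR, 5 of 11 tested variants were higher and 2 lower in low-set ko, against 29.3% and 30.8% of all tested genes. H1f0, the replacement H1, had a log2 fold change of 1.07 ± 0.06 (adjusted p = 1.68e-11), H2afx, the variant phosphorylated at DNA breaks, 0.95 ± 0.08 (adjusted p = 3.86e-09) and H2afv, a form of H2A.Z, 0.73 ± 0.08 (adjusted p = 7.65e-08). In the middle set 2 were higher and 5 lower, and H1f0 and H2afx, at 0.01 and 0.10, were not called.

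Marker levels of other cells moved with the groups. A list of 16 fibroblast (feeder) genes summed to 101 to 115 CPM in low-set ko, against 48.4 to 49.4 CPM in low-set wild type. None of the 16 was at 0 in every library. Of 14 tested, 10 were higher in low-set ko (for example Lox, 3.82, and Bgn, 2.76) and 0 lower. The shares over all tested genes were 29.3% higher and 30.8% lower. Not all list members rose: Lum was at 0 in every ko library. Dcn averaged 0.0365 CPM in low-set ko and 0.0203 CPM in low-set wild type. In middle-set ko, 11 of the tested feeder genes were higher and 3 lower, against 29.9% and 31.9% of all tested genes. The feeder list summed to 108 and 109 CPM in middle-set ko and 45.5 and 48.1 CPM in middle-set wild type. In wild-type add-back it summed to 40.2 to 41.5 CPM. A list of 14 extraembryonic endoderm genes summed to 3808 to 3938 CPM in low-set ko and 5205 to 5277 CPM in low-set wild type, and to 13333 and 14476 CPM in middle-set ko and 2552 and 2674 CPM in middle-set wild type. The 10 ES cell markers summed to 7265 to 7482 CPM in low-set ko and 6281 to 6385 CPM in low-set wild type. In the middle set the order was reversed, at 6028 and 6035 CPM in ko and 6570 and 6552 CPM in wild type. The list of untailed noncoding RNAs summed to 5.98 to 7.17 CPM in low-set ko and 4.05 to 4.86 CPM in low-set wild type, and to 3.66 and 4.18 CPM in middle-set ko and 5.53 and 5.84 CPM in middle-set wild type, with 3 of its 9 genes at 0 in every library. The part of the feeder genes, the endoderm genes and the untailed RNAs in the histone values was not tested.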

How the data were processed

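The authors deposited raw counts of reads per gene in 1 table. Per the labels, RNA was purified on RNeasy columns and libraries were made with a stranded TruSeq mRNA kit. Per the submitters' processing notes, bcl2fastq 2.17 and STAR were used with mm10 (GRCm38). No source used here gives STAR's version, how reads were counted, on which annotation and strand, or what was done with reads that fit several places. Gene lengths are the deposited exonic lengths.

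From the counts, 1 fit was made with edgeR 4.0.16 in R 4.3.3, with a mean for each combination of group and library set, TMM scaling, filterByExpr with a count minimum of 10 (14901 genes left), and two-sided robust quasi-likelihood tests, with p-values adjusted by Benjamini-Hochberg over those genes within a comparison. Calls are at adjusted p-values under 0.05. Sums over genes were given no test. The method was tested on simulated data in which all changed genes averaged over 1 CPM. That does not cover the 46 histone genes under 1 CPM. The genes and lists described were chosen with earlier results of these data known. Named were the 4 genes of highest mean CPM in each class, in each comparison between groups the 4 largest called rises and falls without overlap and with at least 1 CPM in the higher group, Smarca5, and up to 3 genes per other list by adjusted p in the low set. Histone genes named outside this rule, such as Hist1h2ab, Hist2h2ac, Hist1h3a, Hist1h4a and Hist3h2bb-ps, were chosen after their values were seen. Alternatives were other scalings, filters, DESeq2 1.42.0, other sets of libraries, a replicate block and leaving out each library.

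Low counts per gene and library limit the precision for most histone genes. No 2 replicates agreed within counting noise (the chi-square per gene was 1.48 or more). For wild-type and ko pairs of the low and middle sets it was 1.48 to 2.55. It was 2.09 to 6.72 in wild-type add-back, 14 between the 2 mutant add-back libraries and 15.9 to 40.8 in high-set wild type. The mutant add-back libraries thus differed from each other far more than low-set ko or wild-type libraries did.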

Additional observations from a re-analysis of the deposited data

Results flagged for a closer look

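The ko difference of 7 named genes differed between the low and the middle library set by edgeR's interaction test, which is described in the text. The interaction (ko difference in the low set minus that in the middle set, log2) was 2.70 for Hist3h2ba (adjusted p = 0.000272), 2.39 for Hist3h2a (3.26e-05), 1.67 for Hist2h2aa2 (0.0193), 1.52 for Hist1h2ad (0.0229), 1.41 for Hist1h2bc (0.000535), 1.27 for Hist2h3c1 (0.0284) and 1.24 for Hist1h2ae (0.0203).

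In 5 of 62 groups of values a library lay far from the rest of its group by Dixon's test, which chance gives in about 1 in 20 groups. The groups here pool library sets, which differ from each other. Sums of class H4 reached 6.16 CPM in ko replicate 5, against 5.28 CPM in the next ko library. Hist1h3c was lowest in ko replicate 2, at 0.657 CPM, against 0.985 CPM in the next. In wild type, Hist1h1a reached 1.33 CPM in replicate 4 (next 0.929 CPM), Hist1h2ao 4.91 CPM in replicate 5 (next 3.01 CPM) and Hist1h2bc 5.36 CPM in replicate 5 (next 4.16 CPM). These wild-type libraries belong to the high set, which enters none of the comparisons between groups but does enter the estimate of the spread.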

How the results depend on the processing

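Ratios of summed CPM over all classes stayed within 1 SD of the reported value in all 83 alternatives. Of these, 47 left out 1 library. The SD comes from the same libraries, so those 47 could hardly fall outside it and are no check of the ratios. For single classes, 14 alternatives moved the ratio by more than 1 SD, all of them from leaving out the most abundant gene of each class or taking the median over tested genes. With each library left out in turn, wild-type over mutant add-back crossed 1 for H3 (0.632 to 1.04) and H1 (0.773 to 1.11), wild-type add-back over ko for H3 (0.874 to 1.119) and H4 (0.889 to 1.25), mutant add-back over ko for H3 (0.951 to 1.56), and middle-set ko over wild type for H2A (0.868 to 1.15), H2B (0.864 to 1.01) and H3 (0.989 to 1.19). The ratio over all classes was then 2.06 to 2.24 for ko over wild type in the low set. In the middle set it crossed 1, at 0.941 to 1.16. For named genes, 839 of 1033 alternative values kept direction and call, 190 kept direction only and 4 reversed.

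Counts moved more than 1.5-fold as follows; the cause was not tested unless stated. A count minimum of 50 left 6 histone genes to test, of which the calls were 6 (ko minus wild type, low set), 1 (middle set), 2 (wild-type add-back minus ko), 1 (mutant add-back minus ko), 5 (wild-type minus mutant add-back), 4 (wild-type add-back minus wild type), 6 (mutant add-back minus wild type), 3 (interaction), 1 (wild type, low minus middle set) and 3 (ko, low minus middle set). With no filter, the middle-set ko count was 1. DESeq2 called 1 in the middle-set ko comparison, 1 for mutant add-back minus ko, 2 for wild type between sets and 7 for ko between sets. Low-set libraries alone gave 10 for wild-type add-back minus ko and 4 for mutant add-back minus ko. Without the high set, mutant add-back minus ko gave 5, the interaction 18 and wild type between sets 8.

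Whether replicate numbers pair the samples is not settled. The correlation of same-numbered libraries' deviations from their group means ranged from -0.288 to 0.35. Those means pool the library sets, so pairs with a wild-type or ko library also reflect the sets. Between wild-type and mutant add-back, all in the low set, it was 0.141 for replicate 1 and 0.35 for replicate 3. With 1 mean per group over all libraries, which mixes sets, ko minus wild type gave 22, wild-type add-back minus ko 2, mutant add-back minus ko 0, wild-type minus mutant add-back 7 and wild-type add-back minus wild type 1. Adding a replicate block (the paired fit) gave 7, 2, 0, 8 and 2. Reversed were Hist3h2a in wild-type add-back minus wild type, at -0.092 without and -0.25 with the replicate block, and with the block Hist3h2ba in the same comparison (-0.16) and Hist1h2ao in ko minus wild type (-0.011).

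Leaving out each library in turn gave 21 to 29 calls for ko minus wild type in the low set, 0 to 3 in the middle set, 3 to 9 for wild-type add-back minus ko, 0 to 1 for mutant add-back minus ko, 11 to 17 for wild-type minus mutant add-back, 6 to 11 for wild-type add-back minus wild type, 23 to 35 for mutant add-back minus wild type, 3 to 11 for the interaction, 2 to 5 for wild type between sets and 2 to 8 for ko between sets. A group left with 1 library is assumed to vary like the others.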
